A study of Mus musculus with 4 samples.

Results

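*Hlf*-positive stem-like progenitors are described here across the genes of 4 droplet single-cell RNA-sequencing libraries of mouse bone marrow (BM) and spleen. The cells were chosen by their counts of 4 genes: a droplet barcode was a member when it held at least 1000 genes, at most 10% of its unique molecular identifiers (UMIs, 1 for each captured messenger RNA molecule) on mitochondrial genes, at least 1 UMI of *Kit*, at least 1 of *Cd34*, at least 2 of *Hlf*, and at most 1 of *Elane*. Of 16261 barcodes that passed the limits on genes and mitochondrial UMIs, 1327 were members: 480 of 3497 in control BM (CBM), 490 of 4340 in tumor-bearing BM (TBM), 115 of 3236 in control spleen (CS), and 242 of 5188 in tumor-bearing spleen (TS). Runs of 4 values without library names keep this order. The levels of the 4 genes are therefore a property of the selection and are given without a test.

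*Hlf* encodes a basic leucine zipper transcription factor of hematopoietic stem cells that is switched off as progenitors commit. *Kit* encodes the receptor of stem cell factor, *Cd34* a sialomucin of progenitors, and *Elane* neutrophil elastase, which marks the granulocyte path. Hematopoietic stem and progenitor cells (HSPCs) normally reside in the BM, where most stem cells are quiescent, and can seed the spleen and make blood there (extramedullary hematopoiesis, EMH) in inflammation and cancer.

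1 library was made for each group, from female C57BL/6J mice of 8 to 16 weeks. Tumor-bearing mice carried PyMT-B6, a transplanted tumor line that derives from MMTV-PyMT mice, in which a mammary promoter drives the polyoma middle T oncogene, and control mice carried no tumor. Both tissues were digested with enzymes, depleted of lineage-positive (Lin+) cells, and sorted into CD45+ c-Kit+ cells with and without Sca-1 and into CD45- cells gated on CD31 and CD51, and equal parts of the sorted cells were combined, so shares of cells refer to the sorted mixture and not to the organ. The number of mice behind a library is not given in the sources used here. With 1 library per group, differences between groups have no replicate check. The 95% intervals of levels, ratios, and shares cover counting error only, which leaves out amplification, cell selection, and differences between mice.

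Library totals ran from 101811035 UMIs in CBM to 176094297 in TS. The members summed to 7838161 UMIs in CBM and 7838163 in TBM, and 2583559 in CS and 3996854 in TS, so that CS gives the widest intervals. The median member held 14233 UMIs in CBM and 13541.5 in TBM, and 19513 in CS and 13705.5 in TS, and 1 TS member held 126804. No member barcode was a member in another library, and 2 to 9 of the barcodes with enough genes were found in any pair of libraries. Levels are given as CPM, the UMIs of a gene over the UMIs of all genes, both summed over the members of a library and scaled as usual for this unit.

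Members were most frequent in marrow. They made up 13.7% (12.6% to 14.9%, exact binomial) of the CBM barcodes with enough genes, 11.3% (10.4% to 12.3%) in TBM, 3.55% (2.94% to 4.25%) in CS, and 4.66% (4.11% to 5.27%) in TS. Both spleens lay below both marrows by more than counting error. The requirement of 2 *Hlf* UMIs depends on depth, so every barcode was also thinned at random to 5000 UMIs, shallower barcodes were left out (631, 748, 304, and 212), and the selection was repeated. Members were then 8.96% (7.94% to 10.1%) in CBM and 5.77% (5.03% to 6.59%) in TBM, and 1.26% (0.892% to 1.74%) in CS and 1.33% (1.03% to 1.68%) in TS. The order of tissues stayed, the TBM share was below that of CBM, and CS and TS overlapped. Thinning can also bring *Elane* within the limit in barcodes that exceeded it as deposited, so it changes more than depth. Of the 256, 206, 37, and 66 members after thinning, 207, 172, 36, and 65 were also members as deposited. Among barcodes with *Kit*, *Cd34*, and at most 1 *Elane* UMI, of which there were 734, 922, 398, and 931, members were 65.4%, 53.1%, 28.9%, and 26.0% as counted and 49.5% and 34.3% in CBM and TBM after thinning. The share of *Kit*+ *Cd34*+ *Elane*-low barcodes among those with enough genes was 21.0% (19.7% to 22.4%) in CBM and 21.2% (20.04% to 22.5%) in TBM, and 12.3% (11.2% to 13.5%) in CS and 17.9% (16.9% to 19.0%) in TS, so the TS share of these cells was above that of CS, while the part of them that were members after thinning was 14.1% (11.1% to 17.6%) in TS and 21.1% (15.3% to 27.9%) in CS.

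**Figure D1:**
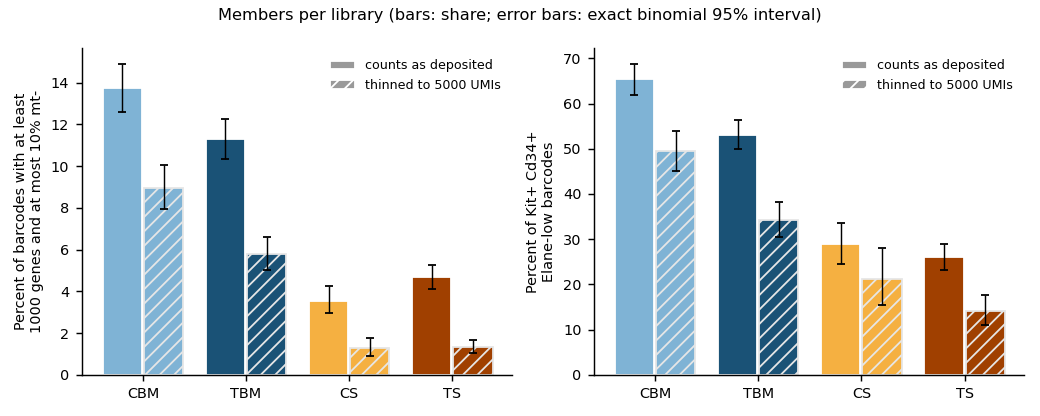
Share of members in each library as bars with exact binomial 95% intervals, among barcodes with enough genes (left) and among *Kit*+ *Cd34*+ *Elane*-low barcodes (right), from counts as deposited (plain) and thinned to 5000 UMIs (hatched). The CBM bars are the highest in both panels, and the CS and TS bars are the lowest, at 3.55% and 4.66% on the left as deposited.

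Members of the 4 libraries differed in how much *Hlf* they held. The median member had 6 *Hlf* UMIs in CBM and 4 in TBM, and 4 in CS and 3 in TS, and the highest had 38, 36, 20, and 12. Members with 8 or more were 36.3% in CBM and 22.04% in TBM, and 24.3% in CS and 7.44% in TS, while 14.4%, 22.2%, 13.9%, and 39.7% sat at the minimum of 2. The *Hlf* level over members was 473 CPM in CBM and 338 in TBM, and 256 in CS and 221 in TS, so TS members were those nearest to the threshold. *Kit* was at 311, 239, 298, and 211 CPM, *Cd34* at 351, 351, 275, and 321, and *Elane* at 25.8, 27.6, 10.8, and 15.01 CPM. *Hlf* (ENSMUSG00000003949) lies on chromosome 11 of GRCm38 (GENCODE positions) from 90336536 to 90390895 on the minus strand. An antisense gene, *Gm16897*, overlaps *Cd34*, and whether counting used strand is not given in the sources used here. 202, 216, 28, and 60 members held the 1 *Elane* UMI that was allowed.

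Other stem cell genes were graded with the *Hlf* count inside the *Kit*+ *Cd34*+ *Elane*-low cells. *Mecom*, which encodes the stem cell transcription factor EVI1, was at 12.6 CPM in CBM cells with 0 *Hlf* UMIs, 27.5 with 1, 45.5 with 2 or 3, 70.3 with 4 to 7, and 94.3 with 8 or more. In TS the same classes held 7.30, 32.0, 29.8, 47.3, and 78.5 CPM. *Procr*, the protein C receptor of stem cells, went from 12.5 CPM at 2 or 3 to 36.1 at 8 or more in CBM and from 10.3 to 47.4 in CS. *Adgrl4*, an adhesion receptor of endothelial and stem cells, went from 241 to 406 CPM in CBM and from 315 to 484 in TBM. The class of 8 or more held 174, 108, 28, and 18 cells. In TS *Procr* did not rise at each step, with 13.5 CPM at 2 or 3, 34.4 at 4 to 7, and 25.1 at 8 or more. Each of these genes was higher at 8 or more *Hlf* UMIs than at 2 or 3 in all 4 libraries. *Gata1*, the erythroid transcription factor, went the other way, and *Flt3*, a receptor of multipotent and lymphoid progenitors, had no common direction.

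**Figure D2:**
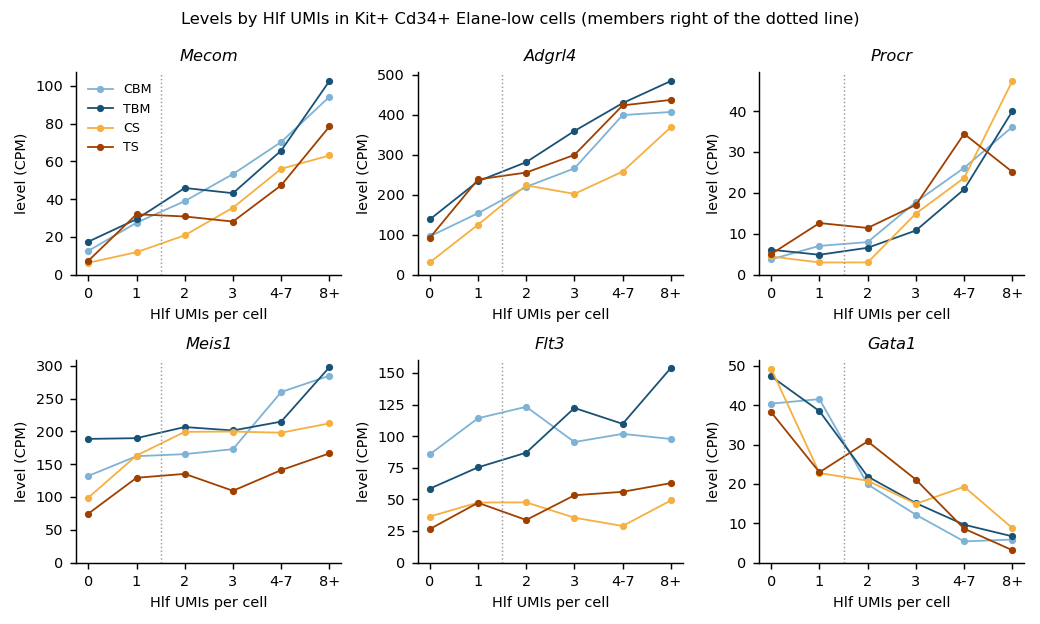
Level in CPM (vertical axis) of 6 genes by the number of *Hlf* UMIs per cell (horizontal axis) in *Kit*+ *Cd34*+ *Elane*-low cells of each library, with members to the right of the dotted line. *Mecom*, *Adgrl4*, and *Procr* are higher at 8 or more UMIs than at 2 in every library, as in CBM, where *Mecom* goes from 38.9 to 94.3 CPM.

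Cells just outside the criteria were looked at once, without a test. With 1 *Hlf* UMI there were 84, 186, 41, and 147 cells in CBM, TBM, CS, and TS. Cells that met every criterion but had 0 *Cd34* UMIs numbered 51, 44, 32, and 20. They held *Flt3* at 5.13, 13.0, 12.3, and 16.9 CPM, below the members of each library, and *Slamf1*, which encodes the stem cell marker CD150, at 25.7, 35.2, 20.1, and 13.5 CPM, above the members' 8.68, 12.6, 8.13, and 4.75. Cells with more than 1 *Elane* UMI that met the other criteria numbered 191, 255, 22, and 46 and held the granulocyte gene *Mpo* at 1761, 2414, 3591, and 2518 CPM, against 322, 238, 180, and 135 in members. Of these cells, 95, 94, 6, and 2 held exactly 2 *Elane* UMIs, with *Mpo* at 438, 355, 1181, and 457 CPM. In CBM and TBM they held *Mecom* at 93.0 and 60.9 CPM and *Adgrl4* at 371 and 349. The *Elane* limit thus also left out marrow cells with levels close to those of members. 19, 11, 4, and 1 cells were lost to the mitochondrial limit and 28, 37, 2, and 29 to the *Kit* requirement alone.

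Genes the selection did not use were then examined. *Mecom* and *Adgrl4* were among the markers that named these cells, and earlier results of these data were known. Their rise is therefore no independent check of the stem-like label. Members were compared with cells of the same selection that had no *Hlf* UMI (*Hlf*-0 cells; 170 in CBM and 246 in TBM, and 242 in CS and 542 in TS), with the UMIs of each population summed per library and the library as a block, by edgeR's quasi-likelihood test with Benjamini-Hochberg adjustment over 12027 genes. The median *Hlf*-0 cell held 15329.5, 12586, 21847, and 14699 UMIs, while the 95th percentile in CS was 63608 UMIs in *Hlf*-0 cells and 44752 in members, and in TS 44951 and 34682. At an adjusted p under 0.05, 1154 genes (9.60%) were higher and 1197 (9.95%) lower in members. Here the 4 libraries are the replicates, and each holds both populations, so the p-values measure the spread of the difference between these libraries. Without CBM there were 750 higher and 625 lower genes, without TBM 763 and 726, and without TS 762 and 748; DESeq2 gave 615 and 656 with all 4.

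Stem cell transcription factors rose in members. Of 22 listed, 14 were higher and 2 lower, where 9.60% of all genes were higher and 9.95% lower. The 2 lower genes are near the share over all genes. The median log2 fold change was 0.66 over the list against -0.01 over all genes tested. *Mecom* was at 71.8 CPM in CBM and 64.2 in TBM, and 48.8 in CS and 37.8 in TS members and at 12.6, 17.5, 6.27, and 7.30 in *Hlf*-0 cells, and the groups did not overlap (log2 fold change 2.31 ± 0.15 (SE), adjusted p = 0.000112). The homeobox genes *Hoxa5*, *Hoxa7*, *Hoxa9*, *Hoxa10*, *Hoxb4*, and *Hoxb5*, which sustain self-renewal, were all higher, with log2 fold changes from 0.63 ± 0.14 for *Hoxb4* to 1.502 ± 0.397 for *Hoxb5*. *Meis1*, a cofactor of these proteins, rose by 0.67 ± 0.11 (adjusted p = 0.00347), *Erg* by 1.06 ± 0.11, and *Prdm16* by 1.36 ± 0.18. *Runx1*, *Tal1*, *Fli1*, *Mycn*, and *Mllt3* did not pass the test, with log2 fold changes from -0.23 to 0.23. *Gata2* (-0.67 ± 0.16) and *Gfi1b* (-0.92 ± 0.11) fell, both of which also act in megakaryocyte, erythroid, and mast cell precursors.

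Surface and other stem cell markers followed. 13 of 24 were higher and 2 lower, with a median log2 fold change of 0.55. The 2 lower genes are again near the 9.95% that were lower over all genes. *Adgrl4* was at 355, 392, 266, and 320 CPM in members of CBM, TBM, CS, and TS against 95.4, 138, 30.4, and 91.8 in *Hlf*-0 cells (log2 fold change 1.96 ± 0.21, adjusted p = 0.000614). *Procr* differed by 2.08 ± 0.19, *Ly6a*, which encodes Sca-1, by 1.62 ± 0.18, and *Fgd5*, a stem cell gene of few counts, by 2.75 ± 0.39. Of 5 genes tested from a separate endothelial list, 2 were higher and 0 lower, with a median log2 fold change of 0.13. The higher ones were *Emcn*, the sialomucin endomucin (2.50 ± 0.23), and *Tie1* (1.33 ± 0.16), which endothelium and stem cells share. *Slamf1* did not pass (-0.33 ± 0.20, adjusted p = 0.284), and *Vwf* (-0.92 ± 0.12) and *Itga2b* (-0.51 ± 0.14), the platelet genes of von Willebrand factor and integrin alpha-IIb, were lower in members.

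**Figure D3:**
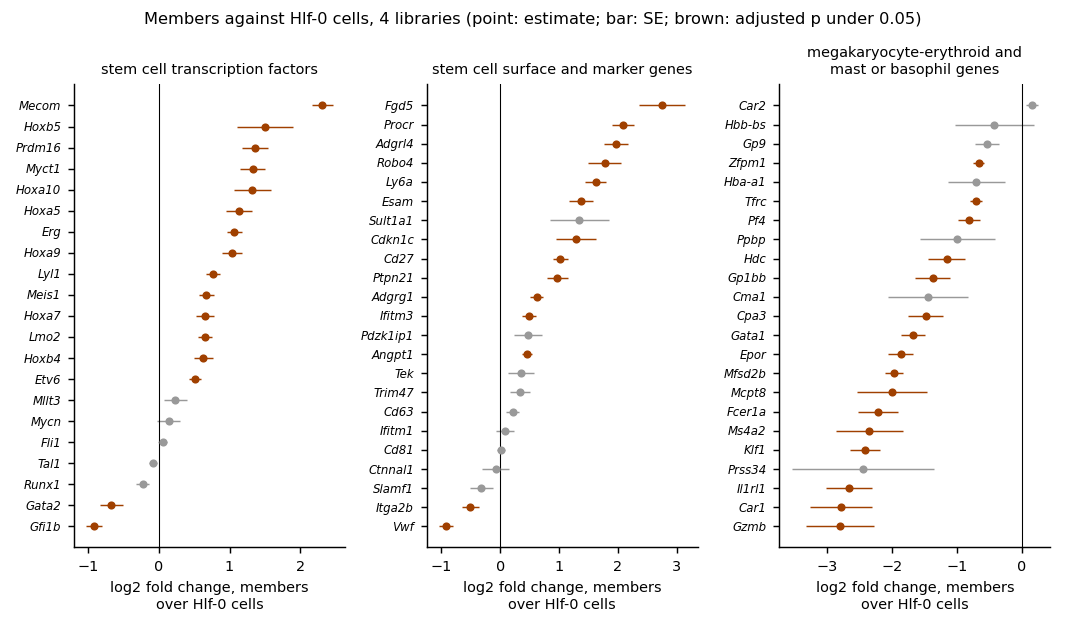
Log2 fold change of members over *Hlf*-0 cells (horizontal axis; points are edgeR estimates, bars SE, brown an adjusted p under 0.05) for genes of stem cell and of megakaryocyte, erythroid, mast cell, and basophil lists. *Mecom* at 2.31 and *Fgd5* at 2.75 lead the stem cell lists, and no gene of the right panel that passed the test was higher in members.

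Genes of committed lineages fell on several sides, in a test where 9.60% of all genes were higher and 9.95% lower. Of 14 megakaryocyte and erythroid genes, 9 were lower and 0 higher, with *Gata1* at -1.68 ± 0.18, *Klf1*, the erythroid Krüppel-like factor, at -2.42 ± 0.24, and *Epor*, the erythropoietin receptor, at -1.87 ± 0.19. Of 9 mast cell and basophil genes tested, 7 were lower and 0 higher, among them *Cpa3* (-1.48 ± 0.27). At an unadjusted p under 0.05, 0 genes of either list were higher as well, and *Car2*, at 0.15, was the one gene with a fold change above 0. Of 14 granulocyte and monocyte genes, 5 were higher and 3 lower. *Csf3r*, the G-CSF receptor (1.27 ± 0.21), *Gfi1* (1.41 ± 0.30), *Lyz2* (0.72 ± 0.18), *Prtn3* (0.77 ± 0.21), and *Spi1*, which encodes the myeloid factor PU.1 (0.33 ± 0.08), rose, while *Irf8*, the monocyte and dendritic cell factor (-2.20 ± 0.34), fell, and *Mpo* (-0.08 ± 0.20) did not pass. When members were selected after thinning, *Prtn3* was at -0.22 and *Spi1* at -0.10. *Flt3* was higher in the test (0.48 ± 0.14, adjusted p = 0.0410). In CS its difference was within counting error, at 37.2 CPM (30.1 to 45.4) in members and 36.4 in *Hlf*-0 cells. *Ighm*, the immunoglobulin heavy chain (-1.32 ± 0.12), and *Ly6d* (-6.04 ± 0.65), a lymphoid surface protein, fell. *Ly6d* was at 137 and 108 CPM in *Hlf*-0 cells of CS and TS and at most 2.38 in those of the marrows.

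The *Hlf*-0 cells were not 1 population. In CS they held genes of major histocompatibility complex (MHC) class II at 4295 CPM in sum, against 335 in CS members, 502 in CBM, 173 in TBM, and 246 in TS *Hlf*-0 cells. The class II gene *H2-Eb1* was at 10.2, 7.40, 14.3, and 2.00 CPM in members and at 30.2, 1.59, 645, and 19.7 in *Hlf*-0 cells, so its fall (-2.95 ± 0.79, adjusted p = 0.0303) was -1.28 (adjusted p = 0.137) without CS; the adjusted p was 0.0506 without CBM, 0.0898 without TS, and 0.229 with DESeq2. The part of such cells in the other differences was not tested.

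Over all genes with a mean of at least 50 CPM, the largest rises were *Vldlr*, *Adgrl4*, *Gimap6*, *Zfp608*, and *Selp*. *Vldlr*, the very low density lipoprotein receptor, was at 49.1, 157, 25.9, and 92.8 CPM in members and at 10.5, 51.0, 1.07, and 19.3 in *Hlf*-0 cells (2.10 ± 0.23, adjusted p = 0.000729). *Selp*, the adhesion molecule P-selectin, was at 35.7, 95.05, 72.8, and 118 CPM against 14.9, 59.5, 13.1, and 38.2 (1.38 ± 0.22). *Msi2*, an RNA-binding regulator of stem cells, rose by 1.06 ± 0.09. The largest falls were *Scin*, an actin-severing protein (-3.45 ± 0.28), *H2-Eb1*, the granule protease gene *Gzmb* (-2.80 ± 0.53), and the erythroid carbonic anhydrase *Car1* (-2.78 ± 0.47). *Irf8*, the mast cell and basophil protease gene *Mcpt8* (-2.001 ± 0.534), and the metallothioneins *Mt2* (-1.97 ± 0.29) and *Mt1* (-1.60 ± 0.09) came next. *Mcpt8* was at 22.1, 33.6, 2.71, and 8.26 CPM in members and at 11.5, 247, 62.5, and 22.2 in *Hlf*-0 cells, so CBM went the other way. There, 1 member held 121 of 173 UMIs. *Gzmb* was at 2.42, 1.53, 54.2, and 31.8 CPM in members and at 104, 25.6, 388, and 48.7 in *Hlf*-0 cells.

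Receptor, cell cycle, and signaling genes were counted in the same test, where 9.60% of all genes were higher and 9.95% lower. Of 20 cytokine and growth factor receptors, 6 were higher, *Il1r1*, the interleukin-1 receptor, most among the better counted at 1.13 ± 0.12 with 29.5, 55.8, 18.6, and 39.8 CPM in members, and *Tnfrsf1a*, a tumor necrosis factor receptor, at 0.66 ± 0.10. *Ifngr1*, the interferon gamma receptor, was lower in all 4 libraries (-1.06 ± 0.09), and so was *Lifr*, the leukemia inhibitory factor receptor, at few counts (-1.84 ± 0.42). In all, 2 of the 20 receptors were lower, a share near that over all genes. Of 20 genes of DNA replication, 10 were lower and 0 higher, from *Ccne2* (-0.61 ± 0.12) to *Tyms* (-0.21 ± 0.06), whereas of 20 genes of G2 and mitosis only *Cenpf* passed, at 0.50 ± 0.13. 5 of 12 genes that restrain the cycle were higher, among them *Cdkn1a* at 0.55 ± 0.11, and *Btg1* was lower, at -0.30 ± 0.08 (0.08 when members were selected after thinning). Of 26 immediate early genes, 8 were higher, with *Socs3*, a feedback inhibitor of cytokine signaling, at 1.20 ± 0.13. The heat shock protein genes *Hsp90aa1* and *Hspa8* were lower, and 2 of 26 is near the share over all genes. Of 21 NF-kappaB genes, 5 were higher, among them *Nfkbiz* at 0.55 ± 0.15, and 3 lower, among them *Nfkbia* at -0.43 ± 0.08, the latter a share near that over all genes.

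Between libraries, most stem cell transcription factors were at lower levels in TS members than in those of CS and TBM. *Meis1* was at 242, 226, 202, and 133 CPM in CBM, TBM, CS, and TS, *Hoxa9* at 82.8, 58.6, 60.0, and 46.3, and *Lmo2*, a partner of TAL1, at 635, 496, 465, and 353. TS was the lowest for each of these genes. In *Hlf*-0 cells TS was also lowest for *Meis1*, at 132, 189, 98.9, and 74.5 CPM. The same held for the sum of the listed factors, at 2005, 2556, 1652, and 1371. *Hoxa9* in *Hlf*-0 cells was instead lowest in CS, at 17.4 against 25.6 CPM in TS. Of 18 measured transcription factors (mean of at least 20 CPM), 3 were higher in TS than CS and 1 in TS than TBM, and the median log2 ratio was -0.36 for TS over CS and -0.36 for TS over TBM, against 0.02 and 0.03 over all 6356 measured genes, and -0.08 for TBM over CBM. The TS members also held the fewest *Hlf* UMIs, and the part of that in these ratios was not tested. Over all 6356 measured genes, 3373 were higher in TS than CS and 3437 in TS than TBM. *Mycn*, which has a mean under 50 CPM, stood at 80.9 CPM in CS and between 27.3 and 39.2 in the other libraries. With a mean of at least 50 CPM, 0 of 13 transcription factors and 1 of 10 surface genes, *Itga2b* in marrow, reached 2-fold between tumor-bearing and control members of a tissue, where 0.125% to 0.533% of all genes did in each direction, so counts this small show nothing particular to the lists.

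Members were mixed in the markers that divide stem cells from multipotent progenitors. After each member was thinned to 5000 UMIs, which left out 10 in CBM and 6 in TBM, *Mecom* had a UMI in 28.7% (24.7% to 33.0%) of CBM and 28.1% of TBM members and in 23 of 115 CS members and 19.4% of those of TS, and *Procr* in 13.6%, 12.6%, 9.57%, and 10.7%. Unthinned, *Mecom* was found in 59.8%, 52.9%, 52.2%, and 40.5%. In hemoglobin-rich erythroid cells of the same libraries, thinned alike, *Procr* was found in 1.08% of 93 CBM cells and in 0 of 128, 57, and 42 cells of TBM, CS, and TS, which allows up to 2.34%, 5.26%, and 7.14%. The median depth of these cells before thinning was 12310, 11474.5, 17574, and 11172 UMIs. *Cd48*, absent from the most primitive stem cells, had a UMI in 33.8% (29.6% to 38.3%), 46.5%, 46.1%, and 69.4% (63.2% to 75.2%) of members (61.3%, 69.4%, 76.5%, and 88.4% unthinned), and in 2.15%, 3.12%, 5.26%, and 0% of the erythroid cells. *Cd48* and *Flt3* were both at 0 in 44.9% (40.3% to 49.5%), 30.8% (26.7% to 35.1%), 50.4% (40.96% to 59.9%), and 21.9% (16.9% to 27.6%), lower in each tumor-bearing library than in its control. *Procr* or *Slamf1* without *Cd48* and *Flt3* was found in 7.66% (5.42% to 10.4%), 5.37%, 6.96%, and 2.89% (1.17% to 5.87%). At this depth a gene at 0 in a cell is not shown to be absent.

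Many members carried messages of dividing cells, and most of all in TS. *Mki67* or *Top2a*, a proliferation antigen and a topoisomerase of G2, had a UMI in 47.4% (42.9% to 52.1%), 49.4% (44.8% to 53.9%), 45.2% (35.9% to 54.8%), and 62.0% (55.5% to 68.1%) of the thinned members. *Mki67* was at 275, 326, 361, and 542 CPM and *Cenpa* at 122, 121, 130, and 235. All 20 genes of G2 and mitosis were higher in TS than in CS, with a median log2 ratio of 0.48, and higher in TS than in TBM, at 0.65; 13 of 20 were higher in TBM than in CBM, at 0.16. When members were selected after thinning, the TS over CS median was -0.04 and the TBM over CBM median -0.36. Over all 6356 measured genes, 3373 were higher in TS than CS, 3437 in TS than TBM, and 3464 in TBM than CBM. The 13 of 20 for TBM over CBM is near that share. The 19 measured genes of DNA replication had medians of 0.26 and 0.03 for TS over CS and TBM over CBM.

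Few genes lay 2-fold apart between both spleens and both marrows, with the lower of one pair set over the higher of the other. Of 3190 genes with a mean of at least 50 CPM, 10 (0.313%) were at least 2-fold higher in both spleens than in both marrows, namely *Car1*, *Hes1*, *Cxcl2*, *Egr1*, *Gadd45b*, *Dusp2*, *S100a4*, *Nfkbia*, *Cd69*, and *Nfkbiz*, and 5 (0.157%) the other way. *Hes1*, a transcriptional repressor downstream of Notch, was at 4.47 CPM (3.11 to 6.21, exact Poisson) in CBM and 9.06 (7.07 to 11.4) in TBM, and 108 (96.1 to 122) in CS and 119 (108 to 130) in TS. It was found in 1.92%, 3.93%, 37.4%, and 40.5% of the thinned members (3.96%, 9.80%, 56.5%, and 65.7% unthinned) and in 0%, 0%, 3.51%, and 7.14% of the erythroid cells. Free RNA, taken from barcodes with at most 100 UMIs, held 3.87, 5.29, 90.6, and 72.1 CPM, so it moved with tissue too. The *Hlf*-0 cells of the same libraries held 15.6, 22.2, 132, and 122 CPM.

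*Cxcl2*, a neutrophil-attracting chemokine, was at 12.5 CPM (10.2 to 15.2) in CBM and 25.9 (22.5 to 29.7) in TBM, and 154 (139 to 170) in CS and 280 (264 to 297) in TS, where the level was highest. *Nfkbia*, the inhibitor that NF-kappaB induces against itself, was at 112, 133, 296, and 450 CPM, and *Tnf*, which encodes tumor necrosis factor, at 10.1, 8.17, 48.8, and 42.5. Marrow and spleen did not overlap for any of the 3, and neither did they in *Hlf*-0 cells, which held *Cxcl2* at 18.3, 26.4, 92.6, and 198 and *Nfkbia* at 171, 187, 377, and 462 CPM. Free RNA held *Cxcl2* at 13.3, 26.1, 66.3, and 85.1 CPM. After thinning, *Cxcl2* was found in 3.62%, 6.61%, 27.0%, and 41.7% of members (7.50%, 9.80%, 39.1%, and 54.5% unthinned), against 0%, 1.56%, 3.51%, and 4.76% of the erythroid cells, *Nfkbia* in 39.8%, 40.7%, 73.9%, and 83.5%, and *Tnf* in 5.32%, 3.31%, 16.5%, and 19.4%, while in the erythroid cells *Nfkbia* was found in 22.6%, 10.9%, 31.6%, and 42.9% and *Tnf* in 0%.

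The 250 bases before the RefSeq start sites of *Cxcl2* and *Nfkbia* (GRCm38.p6) are printed because both genes are known NF-kappaB targets and hold matches to the NF-kappaB consensus, in capitals. They lie at chr5:90903649-90903898 on the plus strand and chr12:55492648-55492897 on the minus strand and are upstream of the first RefSeq exon, though the GENCODE gene of *Cxcl2* (chromosome 5, 90903871 to 90905938) starts inside its window. In *Cxcl2* 2 overlapping matches begin 97 and 96 bases before the start, and in *Nfkbia* 1 begins 29 bases before it. Of a gene's RefSeq starts, the one whose window held the most matches was printed, so the choice favored a match.
Cxcl2: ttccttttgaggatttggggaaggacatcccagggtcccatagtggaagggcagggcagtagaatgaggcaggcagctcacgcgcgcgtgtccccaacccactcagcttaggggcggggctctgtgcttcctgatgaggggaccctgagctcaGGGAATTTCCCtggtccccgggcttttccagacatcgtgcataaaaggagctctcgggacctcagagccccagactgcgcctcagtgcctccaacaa
Nfkbia: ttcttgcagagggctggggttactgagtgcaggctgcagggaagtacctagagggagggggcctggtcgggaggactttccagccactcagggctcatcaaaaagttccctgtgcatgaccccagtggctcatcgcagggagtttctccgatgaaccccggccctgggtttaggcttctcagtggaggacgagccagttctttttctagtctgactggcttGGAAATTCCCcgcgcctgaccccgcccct
Searched on both strands, the consensus was found before 3 of the 9 named spleen-high genes that have a window (*Cxcl2*, *Nfkbia*, and *Nfkbid*), 0 of 13 marrow-high, 0 of 6 tumor-high, and 3 of 8 control-high genes, against 4.46% of all 27025 genes with a window. The control-high genes were *Ltb* and the near-identical copies *H2-Q6* and *H2-Q7*, which are not separate finds. A match is a description of letters and shows no binding.

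The medians of the NF-kappaB and immediate early lists were farther from 0 between tissues than between tumor-bearing and control members. Of 15 measured NF-kappaB genes, 12 were higher in CS than CBM and 12 in TS than TBM, with median log2 ratios of 0.90 and 0.85, whereas TS over CS and TBM over CBM were at 0.07 and 0.02. When members were selected after thinning, the TS over CS median was 0.43. Over all 6356 measured genes, 3611 were higher in CS than CBM and 3437 in TS than TBM. Of 22 measured immediate early genes, 22 were higher in CS than CBM (median 0.81) and 16 in TS than TBM (0.38), with -0.12 for TS over CS and 0.21 for TBM over CBM. The sign for TS over CS depended on the processing, with 0.091 after selection by thinned counts, 0.030 without the deepest 10% of members, and 0.040 as the mean of each member's own CPM. *Egr1*, an immediate early transcription factor, was at 311, 339, 1087, and 1198 CPM, *Jun*, a subunit of AP-1, at 181, 333, 783, and 654, and *Dusp2*, a phosphatase of MAP kinases, at 141, 125, 320.1, and 432. *Nfkbiz*, a nuclear cofactor of NF-kappaB, was at 57.3, 57.8, 122, and 183, and *Cd69*, an early activation marker that also keeps cells in tissue, at 56.4, 108, 228, and 355. *Gadd45b*, a stress-response gene, was at 33.4, 35.5, 105, and 144 CPM. For each of these genes the lower spleen lay above the higher marrow, and the same held for all 6 in *Hlf*-0 cells, from *Nfkbiz* at 51.6, 51.8, 58.7, and 95.7 to *Egr1* at 228, 522, 647, and 695 CPM, so this order was not particular to members. These genes also respond to the digestion of tissue, and that part was not tested.

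*Car1* was uneven among members and lay below its free RNA in every library. It was at 12.2, 3.70, 162, and 360 CPM in members, while free RNA held 89.8, 80.0, 1940, and 1960 CPM. 1 TS member held 290 of 1440 UMIs and 1 CS member 170 of 419. When 10% of UMIs were subtracted by the free RNA profile, the gap of the lower spleen over the higher marrow turned to -1.49 on the log2 scale. *S100a4* was likewise uneven, with 68.8% of CS and 57.2% of TS UMIs in the top 5% of members.

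In the other direction, *Flt3* stood at 103 (95.8 to 110) CPM in CBM and 115 (108 to 123) in TBM, and 37.2 (30.1 to 45.4) in CS and 46.0 (39.6 to 53.2) in TS. It was found in 34.7%, 44.2%, 13.9%, and 23.6% of thinned members (60.4%, 68.0%, 46 of 115, and 45.0% unthinned) and in 2.15%, 2.34%, 0%, and 0% of the erythroid cells. The other genes at least 2-fold higher in both marrows were *Wfdc17*, a secreted protein of myeloid cells, at 119, 119, 33.7, and 43.3 CPM, and the hemoglobin genes *Hba-a1*, *Hba-a2*, and *Hbb-bs*. Hemoglobin genes summed to 785, 1932, 324, and 255 CPM in members and to 9598, 11544, 7667, and 2797 CPM in free RNA. *Nkx2-3*, a homeobox gene, was at 96.1, 84.6, 39.5, and 63.8, *Lars2* at 231, 201, 132, and 83.8, and *Bcl2*, which blocks apoptosis, at 99.9, 113, 68.9, and 55.8 CPM. In these the lower marrow lay above the higher spleen by less than 2-fold. *Hk2*, a hexokinase, was at 66.2, 59.6, 43.4, and 41.3. No gene reached 2-fold in both marrows when members were selected after thinning. *Dntt*, the nucleotide-adding enzyme of lymphoid precursors, was at 99.8, 42.2, 6.19, and 16.5 CPM and *Cd48* at 105, 146, 146, and 292, and 2 of 9 measured genes of the lymphoid and multipotent list were higher in CS than CBM (median log2 ratio -0.56). That median was -0.061 when members were selected after thinning, -0.34 without the deepest members, and -0.32 as the mean of each member's own CPM. Over all 6356 measured genes, 3611 were higher in CS than CBM.

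**Figure D4:**
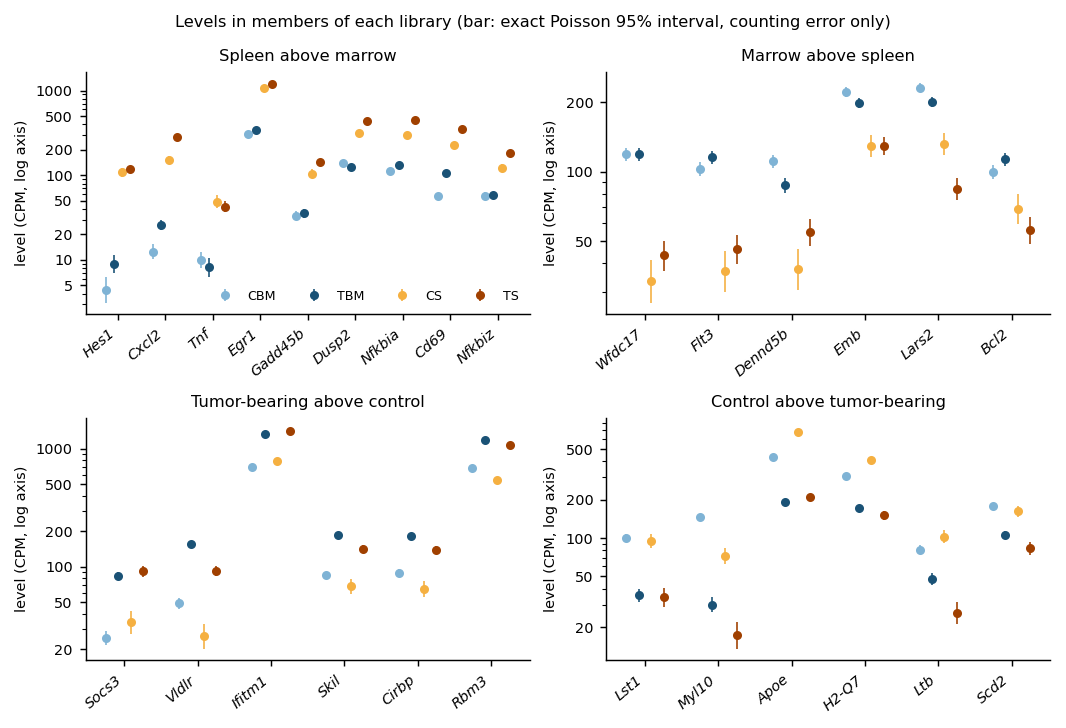
Level in CPM (vertical log axis) in members of each library for named genes of 4 patterns, with exact Poisson 95% intervals. *Hes1* lies at 4.47 and 9.06 in the marrows and at 108 and 119 in the spleens, *Socs3* at 25.0 and 34.1 in the controls and at 83.8 and 92.1 in the tumor-bearing libraries.

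Few genes also lay 2-fold apart between both tumor-bearing libraries and both controls, with the lower of one pair set over the higher of the other. A gene can pass 2-fold within each tissue, as *Vldlr* did, and not be counted here. 1 gene (0.0313%), *Socs3*, was at least 2-fold higher in both tumor-bearing libraries than in both controls, and 3 (0.0940%), *Lst1*, *Myl10*, and *Apoe*, were at least 2-fold lower. *Socs3* went from 25.0 CPM (21.6 to 28.8) in CBM to 83.8 (77.5 to 90.5) in TBM and from 34.1 (27.3 to 42.0) in CS to 92.1 (82.9 to 102) in TS. The log2 ratios were 1.75 (1.51 to 1.98) in marrow and 1.43 (1.10 to 1.79) in spleen. It was found in 13.0%, 32.0%, 11.3%, and 34.7% of thinned members (27.9%, 59.0%, 31.3%, and 60.3% unthinned) and in 1.07%, 3.91%, 0%, and 0% of the erythroid cells. The *Hlf*-0 cells of the same libraries held 8.15, 45.2, 9.63, and 38.5 CPM, also higher in both tumor-bearing libraries.

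*Socs3* (ENSMUSG00000053113; chromosome 11, 117966079 to 117970047, minus strand) is a known target of STAT factors. The 250 bases before its RefSeq start at chr11:117969367-117969616, upstream of the first exon of that RefSeq transcript but inside the bounds that GENCODE gives the gene, hold 1 match to the STAT motif TTCNNNGAA, in capitals, 154 bases before the start. This start was chosen among the gene's RefSeq starts for the most matches, so the choice favored a match.
Socs3: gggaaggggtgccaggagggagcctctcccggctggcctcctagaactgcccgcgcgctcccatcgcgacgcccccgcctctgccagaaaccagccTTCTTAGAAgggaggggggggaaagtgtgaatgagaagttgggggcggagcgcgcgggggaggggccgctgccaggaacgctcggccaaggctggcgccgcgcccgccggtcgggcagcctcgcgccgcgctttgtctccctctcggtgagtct
This motif was found before 1 of 6 tumor-high, 2 of 9 spleen-high, 0 of 13 marrow-high, and 1 of 8 control-high genes, against 8.13% of all genes.

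*Vldlr* differed about as much as *Socs3* within each tissue. It was at 49.1 CPM (44.3 to 54.3) in CBM and 157 (149 to 166) in TBM, and 25.9 (20.1 to 32.9) in CS and 92.8 (83.6 to 103) in TS, for log2 ratios of 1.68 (1.51 to 1.85) and 1.84 (1.46 to 2.24), and it was found in 20.6%, 49.2%, 9.57%, and 34.7% of thinned members (41.9%, 77.8%, 31.3%, and 62.0% unthinned). *Ifitm1*, an interferon-induced membrane protein, was at 707, 1333, 787, and 1428 CPM. *Skil*, a repressor of SMAD signaling, was at 84.7, 185, 68.5, and 142, and the cold-induced RNA-binding genes *Cirbp* at 89.7, 182, 65.4, and 139 and *Rbm3* at 690.3, 1178, 547, and 1071 CPM. *Csf2rb*, the common beta chain of the IL-3 and GM-CSF receptors, was at 40.3, 73.1, 39.9, and 63.3. *Cpt1a*, which carries fatty acids into mitochondria, was at 40.8, 67.0, 38.3, and 71.6, and *Ffar2*, a receptor of short fatty acids, at 34.4, 68.9, 42.6, and 84.1. For each of these genes both tumor-bearing libraries lay above both controls with intervals that did not overlap. Free RNA of *Rbm3* moved alike, at 787, 1241, 632, and 989 CPM, and that of *Vldlr* held 6.88, 19.2, 0.790, and 4.99.

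Other genes were lower in both tumor-bearing libraries than in both controls. *Lst1*, an immune gene of the MHC region, went from 100.7 to 35.6 CPM in marrow and from 94.8 to 34.3 in spleen, and *Myl10*, a myosin light chain, from 146 to 30.1 and from 72.4 to 17.3. *Apoe*, apolipoprotein E, went from 431 to 191 and from 682 to 208, while its free RNA went from 395 to 220 and from 718 to 237 CPM. *Ltb*, lymphotoxin beta, was at 81.3, 47.7, 103, and 26.0 and *Scd2*, a fatty acid desaturase, at 177, 106, 162, and 83.1. *H2-Q7* was at 306, 172, 407, and 151 CPM and *H2-Q6* at 86.4, 47.0, 110, and 43.5, but these neighbors are near-identical copies, so the split of reads between them is uncertain. All 10 measured genes of MHC class I were lower in TS than in CS and in TBM than in CBM, with median log2 ratios of -0.40 and -0.18, among them *B2m* at 1441, 1168, 1652, and 1131 CPM. The class I list summed to 4872, 3986, 5508, and 4022 CPM in members. Its sum was 4180, 3434, 4912, and 3481 in *Hlf*-0 cells and 3835, 2879, 4292, and 2427 in free RNA. The fall was thus not particular to members. Of 10 measured interferon-stimulated genes, 1 was higher in TS than CS and 3 in TBM than CBM (-0.32 and -0.37). Over all 6356 measured genes, 3373 and 3464 were higher. The interferon list summed to 975, 1005, 1208, and 1126 CPM in members. Its sum was 1106, 934, 1436, and 1186 in *Hlf*-0 cells and 1096, 889, 1071, and 724 in free RNA. The part of free RNA in the ratios of both lists was not tested.

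**Figure D5:**
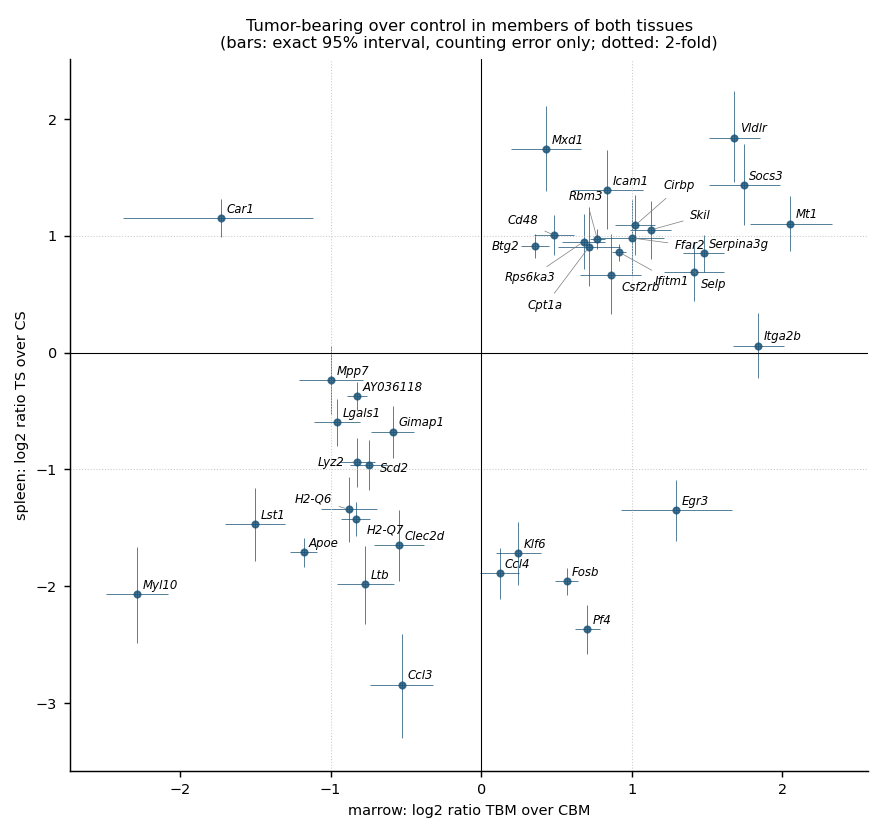
Log2 ratio of tumor-bearing over control members in marrow (horizontal axis) and spleen (vertical axis) for named genes, with exact 95% intervals and dotted lines at 2-fold. *Socs3* (1.75 and 1.43) and *Vldlr* (1.68 and 1.84) lie at the upper right, *Myl10* (-2.28 and -2.07) at the lower left, and *Pf4* (0.70 and -2.37) at the lower right.

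Within spleen, 10 genes (0.313%) were at least 2-fold higher in TS than CS and 17 (0.533%) lower, and within marrow 14 (0.439%) were higher in TBM than CBM and 4 (0.125%) lower. TS members held the most *Mxd1*, an antagonist of MYC, at 34.3, 46.3, 30.2, and 100.8 CPM, and the most *Icam1*, an adhesion molecule, at 29.3, 52.4, 35.6, and 93.3. They held the least *Ccl3* (58.8, 40.8, 95.2, and 13.3) and *Klf6* (87.4, 104, 143, and 43.5), a chemokine and a Krüppel-like factor. In these, free RNA of TS was also lowest, at 16.6 and 8.87 CPM. *Btg2*, an antiproliferative gene, was at 211, 270.1, 403, and 756 CPM. *Itga2b* was highest in TBM, at 46.3, 166, 68.5, and 71.3 CPM, and *Serpina3g*, a serine protease inhibitor, was at 76.2, 212, 169, and 305. *Mt1* was at 17.9, 74.1, 74.7, and 161 CPM, below its free RNA of 230.4, 435, 879, and 1026 in every library. Selection after thinning gave 30 higher and 32 lower genes for TS over CS.

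Some genes came largely from few members. *Pf4*, platelet factor 4, was at 252, 411, 328, and 63.5 CPM, but the top 5% of members held 94.7%, 92.5%, 96.2%, and 95.7% of its UMIs, with 489 of 848 in 1 CS member and 224 of 254 in 1 TS member. *Dennd5b* had 63.5% of its CBM UMIs in the top 5%, whereas *Adgrl4* had 14.9% and *Socs3* 38.3%. The top 5% also held 68.0%, 66.8%, 100%, and 65.15% of the *Dntt* UMIs and 69.2%, 77.5%, 54.5%, and 71.7% of those of *Ccl3*. For *Cxcl2* they held 87.8%, 84.7%, 43.6%, and 29.5%. Such shares are also high where few members hold any UMI. *Dntt* in CS had 16 UMIs in 5.22% of members, so its 100% was fixed in advance. In CBM, *Cxcl2* had 98 UMIs in 7.50% of members, and *Socs3* had 196 UMIs against 2779 of *Adgrl4*.

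Markers of each of 5 other cell types summed to at most 235 CPM in members. Of 9 stromal markers, *Pdgfra*, *Col3a1*, *Lepr*, *Dcn*, and *Lum* were at 0 in every library, and the sum of 26.2, 52.3, 38.7, and 60.8 CPM was mostly *Pdgfrb*. Endothelial markers summed to 100.0, 97.7, 104, and 93.3 CPM, led by *Pecam1*, which stem cells also express. Macrophage markers summed to 20.2, 3.70, 1.94, and 0.5004, B-lineage markers to 54.3, 32.2, 28.3, and 22.02, and T and NK cell markers to 127, 154, 222, and 235 CPM, nearly all *Nkg7*. The stromal and endothelial sums of members were above those of all barcodes in every library. All barcodes held 12.2, 17.04, 7.70, and 12.8 CPM of the stromal and 70.9, 56.8, 38.2, and 28.4 CPM of the endothelial markers. The macrophage sum of members was above that of all barcodes in CBM only, and the B-lineage and T and NK sums in the spleens only. Leaving out members with hemoglobin over 1% of UMIs or defining UMIs of other cell types kept 450, 456, 109, and 232 members, and the counts of genes past 2-fold then differed most for marrow over spleen, at 2 genes.

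Homing and glycolysis genes had medians nearer to 0 between tumor-bearing and control members than stress genes. Of 18 homing and adhesion genes, 14 were measured, and the median log2 ratios were 0.07 for TS over CS and 0.04 for TBM over CBM. *Cxcr4*, the receptor that holds HSPCs in the marrow, was at 49.9, 41.5, 34.1, and 33.5 CPM, and *Itga4*, an integrin subunit, at 191, 180.0, 225, and 192. Of 13 measured glycolysis and hypoxia genes the medians were 0.04 and 0.16, with *Ldha*, lactate dehydrogenase, at 308, 464, 397, and 554 CPM. Of 5 measured genes of amino acid, oxidative, and metal stress, all 5 were higher in TS than CS and 4 in TBM than CBM, with medians of 0.49 and 0.33 against 0.02 and 0.03 over all measured genes. The whole list summed to 458, 610, 564, and 822 CPM in members and to 546, 854, 1591, and 2092 in free RNA. It includes *Mt1* and *Mt2*, with 63.2% and 72.3% of CS and 63.4% and 82.2% of TS UMIs in the top 5% of members. The part of free RNA in these medians was not tested. Over all 6356 measured genes, 3373 were higher in TS than CS and 3464 in TBM than CBM. Against *Hlf*-0 cells, where 9.60% of all genes were higher and 9.95% lower, 3 of 18 homing genes tested were lower, *Cxcr4* (-0.34 ± 0.08), *Itga4* (-0.80 ± 0.10), and *Itgb2* (-0.95 ± 0.25), and *Alcam* was higher (1.27 ± 0.21). Of 16 glycolysis and hypoxia genes tested, *Slc2a3*, a glucose transporter (0.94 ± 0.15), *Pdk1* (0.63 ± 0.12), and *Pkm* (0.45 ± 0.07, but -0.07 with members selected after thinning) were higher, and *Ldha* was lower (-0.39 ± 0.05). Of 18 interferon-stimulated genes tested 4 were higher and 2 lower, of 11 MHC class I genes 3 were higher and 0 lower, and of 11 stress genes 1 was higher and 5 lower. The 2 of 18 lower interferon-stimulated genes are near the share over all genes.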

How the data were processed

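4 droplet libraries (10x 3′ chemistry), 1 per group, were analysed. The values are raw UMI counts per gene and barcode, deposited by the authors for all barcodes after Cell Ranger 4.0 on the mouse build mm10; the removal of free RNA and the scaling described for the study are not in these counts. Counts were not corrected further, and doublets were not removed. Barcodes were selected by UMIs of *Hlf*, *Kit*, *Cd34*, and *Elane* as given above. The members and gene lists were chosen with earlier results of these data known.

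UMIs were summed per library and scaled to CPM, with exact Poisson and exact binomial intervals at 95% and exact conditional intervals of ratios (Python 3.11.15, scipy 1.17.1). Ratios between libraries have no test; a gene counted as past 2-fold among genes with a mean of at least 50 CPM, and list medians used at least 20 CPM. A 0 of n cells was given the limit that 3 counts allow. Members and *Hlf*-0 cells were compared by edgeR 4.0.16 (R 4.3.3; quasi-likelihood, library as block, Benjamini-Hochberg at 0.05), tested on simulated data; DESeq2 1.42.0 was an alternative. Thinning drew 5000 UMIs per barcode. Erythroid reference cells had at least 5% hemoglobin UMIs.

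Named genes were those of the lists, the 15 largest fold changes each way in the test, the 15 widest gaps each way between tissues, the 10 each way between tumor-bearing and control, and the 10 each way with the ratio bound farthest from 0 within a tissue, all at 50 CPM or more and without mitochondrial, ribosomal, hemoglobin, immunoglobulin, and unnamed genes; some genes that meet this rule are not reported here. Promoter windows and start sites are from RefSeq. Alternatives were other gene, mitochondrial, and *Hlf* limits, thinning, removal of the deepest members, of members with UMIs of other cell types, or of 10% of UMIs as free RNA, other filters, means over members, median-ratio scaling, and leaving out each library in the test.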

Additional observations from a re-analysis of the deposited data

Results flagged for a closer look

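Among nameable genes with a mean of at least 50 CPM that reached 2-fold in spleen or marrow, the tumor-bearing library of 5 lay on opposite sides of its control in spleen and marrow, with intervals of both ratios off 0; the difference between tissues was not tested, since each group is 1 library. *Pf4*, platelet factor 4, had a log2 ratio of -2.37 for TS over CS and 0.70 for TBM over CBM, with 92.5% to 96.2% of its UMIs in the top 5% of members. *Car1*, the erythroid carbonic anhydrase, had 1.15 and -1.73, beside free RNA of 1940 and 1960 CPM in CS and TS. 3 of the 5 encode transcription factors of the immediate early list and were lower in TS than CS and higher in TBM than CBM, with -1.96 and 0.57 for *Fosb*, -1.35 and 1.29 for *Egr3*, and -1.72 and 0.25 for *Klf6*. In CBM, TBM, CS, and TS members *Fosb* was at 312, 462, 883, and 227 CPM and *Egr3* at 11.4, 27.8, 124, and 48.5.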

How the results depend on the processing

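The counting depth of CS members limits the spleen ratios, and the selection itself moves with depth. Thinning also eased the *Elane* limit, and its spleen results rest on 37 CS and 66 TS members. With at least 350 genes per barcode members were 8.40%, 4.28%, 1.60%, and 3.58% in CBM, TBM, CS, and TS, with *Hlf* at 1 or more 16.1%, 15.6%, 4.82%, and 7.50%, and with thinning 8.96%, 5.77%, 1.26%, and 1.33%. Without the mitochondrial limit they were 12.3% and 9.88% in CBM and TBM, without the deepest 10% of members 12.4% and 10.2%, and with *Hlf* at 3 or more 11.8%, 8.78%, and, in TS, 2.81%.

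Genes past 2-fold (TS over CS higher, lower; TBM over CBM higher, lower; both spleens, both marrows, both tumor-bearing, both controls higher) were 493, 1110, 612, 1050, 102, 106, 34, and 109 without a filter on level. At 20 CPM there were 25, 51, 27, 13, and 17 for the first 5 and 4 for both tumor-bearing. Thinning gave 30 and 32 for TS over CS, 9 lower in TBM, 0 for both marrows, and 2 for both tumor-bearing. *Hlf* at 3 or more gave 16 higher in TS and 2 for both tumor-bearing, and leaving out the deepest members 2 for both tumor-bearing. Subtracting free RNA gave 7 lower in TBM and 2 for both marrows, and leaving out members with UMIs of other cell types 2 for both marrows. The *Car1* gap of spleen over marrow was -1.49 with free RNA subtracted.

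List medians moved with thinning: lymphoid CS over CBM -0.061 and TS over TBM -0.031, NF-kappaB TS over CS 0.43, immediate early TS over CS 0.091, CS over CBM 1.01, and TS over TBM 0.65, MHC class I TS over CS -0.24, DNA replication CS over CBM -0.33 and TS over TBM -0.082, and G2 and mitosis TS over CS -0.045 and TBM over CBM -0.36. Without the deepest members they were -0.030 (TBM over CBM) and -0.34 (CS over CBM) for lymphoid, 0.030 (TS over CS) for immediate early, and 0.35 (TBM over CBM), 0.71 (CS over CBM), and 0.96 (TS over TBM) for G2 and mitosis genes. *Hlf* at 3 or more gave lymphoid TS over CS 0.27, and *Hlf* at 1 or more gave G2 and mitosis CS over CBM 0.084 and TS over TBM 0.48. The mean of each member's own CPM gave lymphoid CS over CBM -0.32 and immediate early TS over CS 0.040. The cause was not tested.

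In the test against *Hlf*-0 cells, the fit without the library as replicate block, which pairs the populations of a library, called 261 higher and 100 lower genes, and DESeq2 615 and 656. Leaving out 1 library gave 750 to 900 higher and 625 to 926 lower. Thinning gave the opposite sign for *Btg1* (0.082), *Cd48* (-0.40), *Cdk1* (-0.44), *Cebpa* (-0.87), *Cebpe* (-1.33), *Hbb-bt* (-0.36), *Ier5* (0.29), *Nqo1* (0.31), *Pkm* (-0.070), *Prtn3* (-0.22), *Spi1* (-0.10), *Top2a* (-0.33), and *Tpi1* (-0.28). Median-ratio scaling shifted all levels of a library by at most 0.03 on the log2 scale.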
